A study of Mus musculus with 2 samples.

Results

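The genes described are the Sox and forkhead (Fox) transcription factors of the mouse, taken as every listed gene whose symbol is Sox followed by digits, or Fox followed by 1 lower-case letter and digits. There were 63 of them, 19 Sox and 44 Fox genes, among 31040 listed genes. Of the 63, 27 had at least 50 unique molecular identifiers (UMIs, tags that mark single captured transcripts) and were treated as measured. They were 11 Sox and 16 Fox genes. The same minimum was met by 16007 of all 31040 listed genes. The study sequenced RNA from single nuclei of the prefrontal cortex of wild-type male C57BL/6 mice aged 2 months. The METH group received 5 mg/kg methamphetamine, a stimulant drug, into the peritoneum over 14 days, and the Control group received saline by the same route. The tissue of 3 mice per group was pooled, with 1 library labelled for each group. Barcode endings told 2 libraries apart, but no label or file tied an ending to METH or Control, so METH and Control were not compared. All values below are for both libraries as 1 pooled sample, or for library 1 and library 2 named by those endings, and no difference has a replicate check.

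Sox proteins bind the minor groove of DNA through a high-mobility-group box and bend it, usually beside a partner factor. They are grouped by sequence: SoxB1 proteins (Sox1, Sox2) are known for keeping neural progenitors undifferentiated, SoxC proteins (Sox4, Sox11, Sox12) for newborn neurons, SoxD proteins (Sox5, Sox6, Sox13) for timing the differentiation of neurons and oligodendrocyte precursors, and SoxE proteins (Sox8, Sox9, Sox10) for glia. Fox proteins bind DNA through a winged-helix domain. Foxp proteins are repressors known for the development of striatal and deep cortical neurons, and Foxo proteins are held out of the nucleus by insulin and Akt signalling.

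After filtering, 18095 nuclei held 57598077 UMIs, with a median of 2985 UMIs per nucleus, and the 63 genes held 82714 of those UMIs, or 0.144%. Nuclei were sorted into classes from marker genes that include no Sox or Fox gene, and no Sox or Fox gene was used to cluster them. The classes used for counts had at least 100 nuclei and 200000 UMIs: 8070 excitatory neurons, 3044 oligodendrocytes, 2704 inhibitory neurons, 1414 striatal projection neurons, 858 microglia, 355 oligodendrocyte precursors, 304 astrocytes and 221 neuroblasts or dividing progenitors. Smaller named classes were 103 differentiating oligodendrocytes, 67 fibroblasts and 55 cholinergic neurons, and 900 nuclei stayed unnamed. The neuronal subclasses used below cover only part of their classes. Excitatory clusters of 1399 nuclei (led by Rorb), 1249, 697 and 379 nuclei had no subclass, nor did inhibitory clusters of 177 and 80. The layer 4/5 intratelencephalic subclass, of 242 nuclei, does not hold the cluster led by Rorb. Striatal projection neurons lie outside the labelled prefrontal cortex. Astrocytes came as 50 nuclei from library 1 and 254 from library 2, and neuroblasts or dividing progenitors as 43 and 178. Most mature oligodendrocytes fell into a pair of clusters that each came largely from 1 library (1429 nuclei of library 1 and 105 of library 2 in the first, 36 and 1202 in the second). There were 154 barcode sequences that occurred in both libraries. Levels are the UMIs of a gene over all UMIs of a class, scaled as CPM, and all intervals are exact 95% intervals that cover counting error only. Free RNA in droplets can add UMIs to any nucleus, so an upper limit for it was set for each gene and class from the excitatory-neuron gene Slc17a7, and in excitatory neurons from myelin genes.

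The 250 bases before the annotated start are shown for 4 of the 18 measured members with a sequence. Sox9, Sox10 and Foxp2 were among those without one. Sox4 and Sox11 are SoxC genes that, among the classes used for counts, were both highest in neuroblasts or dividing progenitors. Sox8 was shared along the oligodendrocyte line, and Foxo1 was highest in striatal projection neurons. Of these 4, only Sox11 had a clear highest class by the rule given below. The stretches are from the RefSeq table for GRCm38.p6 and read 5′ to 3′ on the gene's strand. They lie at chr13:28953700-28953949 (minus strand), chr12:27342719-27342968 (minus), chr17:25570687-25570936 (minus) and chr3:52268087-52268336 (plus). Capitals mark the Sp1 box GGGCGG and the CCAAT box, on either strand; the Sox core ACAAT and the forkhead core TAAACA were also searched on both strands.
Sox4: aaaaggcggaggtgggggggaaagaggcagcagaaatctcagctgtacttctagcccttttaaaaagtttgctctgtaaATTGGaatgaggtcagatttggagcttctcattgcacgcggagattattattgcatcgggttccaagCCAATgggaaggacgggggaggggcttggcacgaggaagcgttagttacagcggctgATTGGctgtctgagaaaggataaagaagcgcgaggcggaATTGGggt
Sox11: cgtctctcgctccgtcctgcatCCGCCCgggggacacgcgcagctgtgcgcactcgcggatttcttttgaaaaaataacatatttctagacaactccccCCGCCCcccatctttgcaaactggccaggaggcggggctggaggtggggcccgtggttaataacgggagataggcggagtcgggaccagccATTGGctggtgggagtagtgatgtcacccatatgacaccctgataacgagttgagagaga
Sox8: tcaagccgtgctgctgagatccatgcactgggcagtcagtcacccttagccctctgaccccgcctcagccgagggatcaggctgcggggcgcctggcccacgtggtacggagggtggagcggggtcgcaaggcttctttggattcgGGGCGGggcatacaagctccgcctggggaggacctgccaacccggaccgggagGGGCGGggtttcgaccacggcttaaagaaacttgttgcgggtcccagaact
Foxo1: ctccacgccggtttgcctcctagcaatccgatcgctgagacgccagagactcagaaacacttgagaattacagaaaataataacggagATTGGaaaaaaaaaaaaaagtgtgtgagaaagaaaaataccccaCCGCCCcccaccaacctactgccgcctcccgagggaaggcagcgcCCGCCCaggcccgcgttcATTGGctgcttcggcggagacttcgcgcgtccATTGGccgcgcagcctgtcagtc
Sox4 held 4 CCAAT boxes and no Sp1 box, Sox11 held 1 CCAAT box and 2 Sp1 boxes, Sox8 held 2 Sp1 boxes and no CCAAT box, and Foxo1 held 3 CCAAT boxes and 2 Sp1 boxes. Neither the Sox core nor the forkhead core occurred in these 4 stretches. Of the 27 measured members, 18 had a sequence in the table. The Sp1 box occurred in 13 of the 18, against 32.9% of the 27025 stretches of the same length in the table. For the CCAAT box the count was 7 of 18, against 34.5%. For the Sox core it was 1 of 18, against 28.3%, and for the forkhead core 2 of 18, against 12.0%. The median GC content was 67.6% for the 18 members and 52.0% for the 27025 stretches. The Sox core and the CCAAT box share their last 4 letters but cannot match at the same place. These matches describe letters in the window and say nothing of binding.

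A member was said to have a clear highest class where its CPM there was at least 2-fold above the next of the 8 classes and the interval of that ratio excluded 1. This held for 7 of the 27 measured members (25.9%), against 15.1% of all 16007 genes with at least 50 UMIs. The 7 were Sox9 in astrocytes, Sox5 and Sox6 in oligodendrocyte precursors, Sox11 in neuroblasts or dividing progenitors, Foxp1 and Foxp2 in striatal projection neurons, and Foxn3 in microglia. Oligodendrocyte precursors were the clear highest class of 2 members (7.41%), against 1.19% of all measured genes, and striatal projection neurons of 2 (7.41%), against 1.06%. Astrocytes, microglia and neuroblasts or dividing progenitors each had 1 (3.70%), against 2.72%, 5.3% and 0.693% of all measured genes in that order. Excitatory neurons, inhibitory neurons and mature oligodendrocytes had 0, against 0.525%, 0.687% and 2.97%. Without the 2-fold rule, astrocytes were the highest class for 8 members, against 17.6% of all measured genes, and neuroblasts or dividing progenitors for 7, against 12.6%. Microglia were highest for 4 (against 23.8%), oligodendrocyte precursors for 3 (against 12.3%), striatal projection neurons for 3 (against 7.53%) and oligodendrocytes for 2 (against 11.0%). Excitatory neurons (6.72% of all measured genes) and inhibitory neurons (8.46%) were highest for 0 members. The 7 genes had the same highest class in library 1 and library 2, as did 96.5% of all genes with a clear highest class. The same was true of 16 of the 27 measured members (59.3%), against 48.5% of all measured genes. The median ratio of highest to next class was 1.84 for the 11 Sox genes and 1.42 for the 16 Fox genes, against 1.28 for all measured genes. In at least 1 class, 25 of the 27 members (92.6%) lay above the free RNA limit, against 91.8% of all measured genes; Foxo4 and Foxr2 did not.

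**Figure D1:**
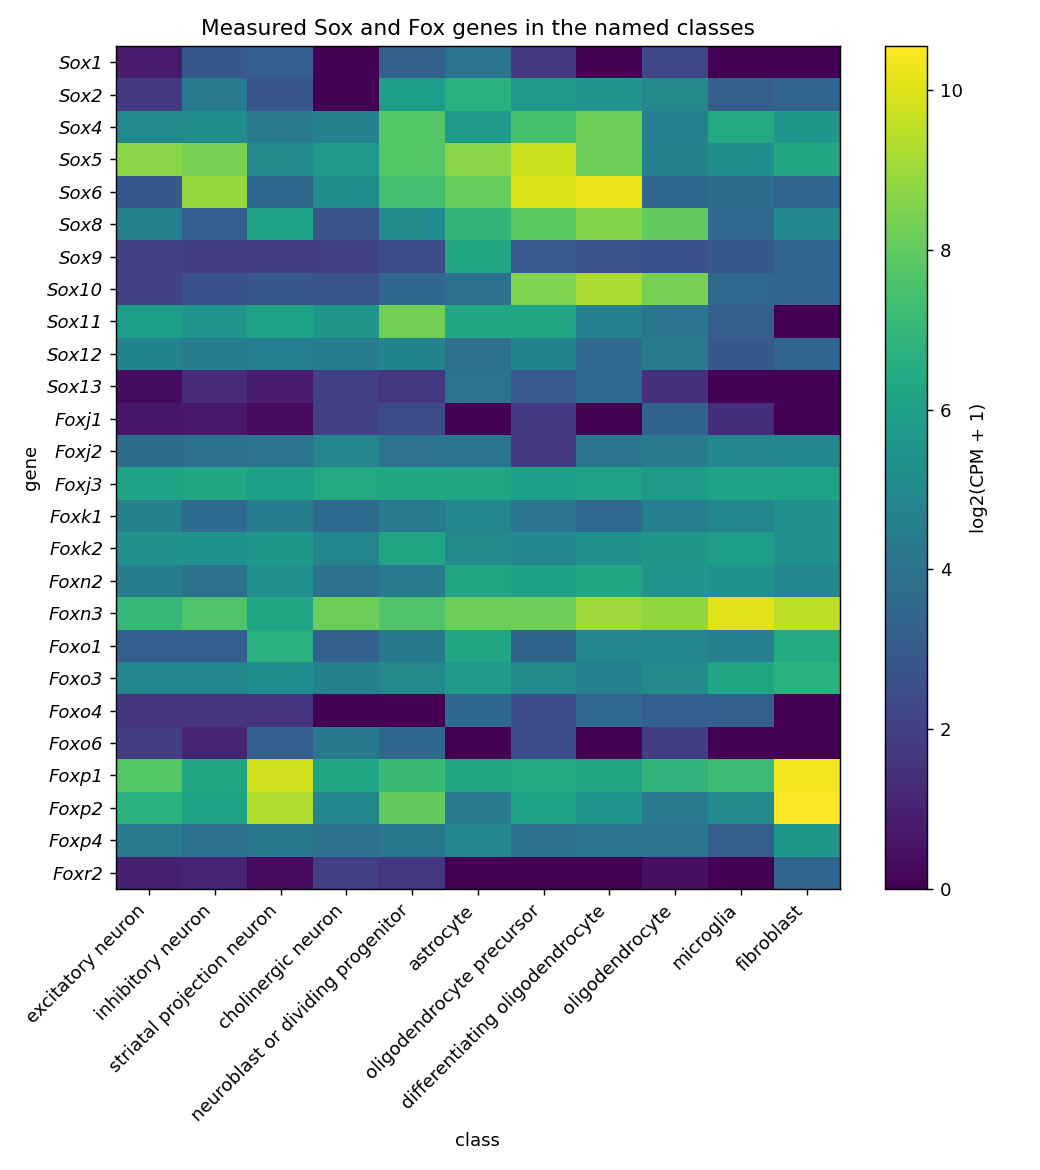
Levels of 26 of the 27 measured Sox and Fox genes (down the page) in the 11 named classes (across), as log2(CPM + 1) by colour, both libraries pooled. Sox10 and Sox8 were bright along the oligodendrocyte line, Foxp1 and Foxp2 in striatal projection neurons and fibroblasts, and Foxn3 in microglia.

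**Figure D2:**
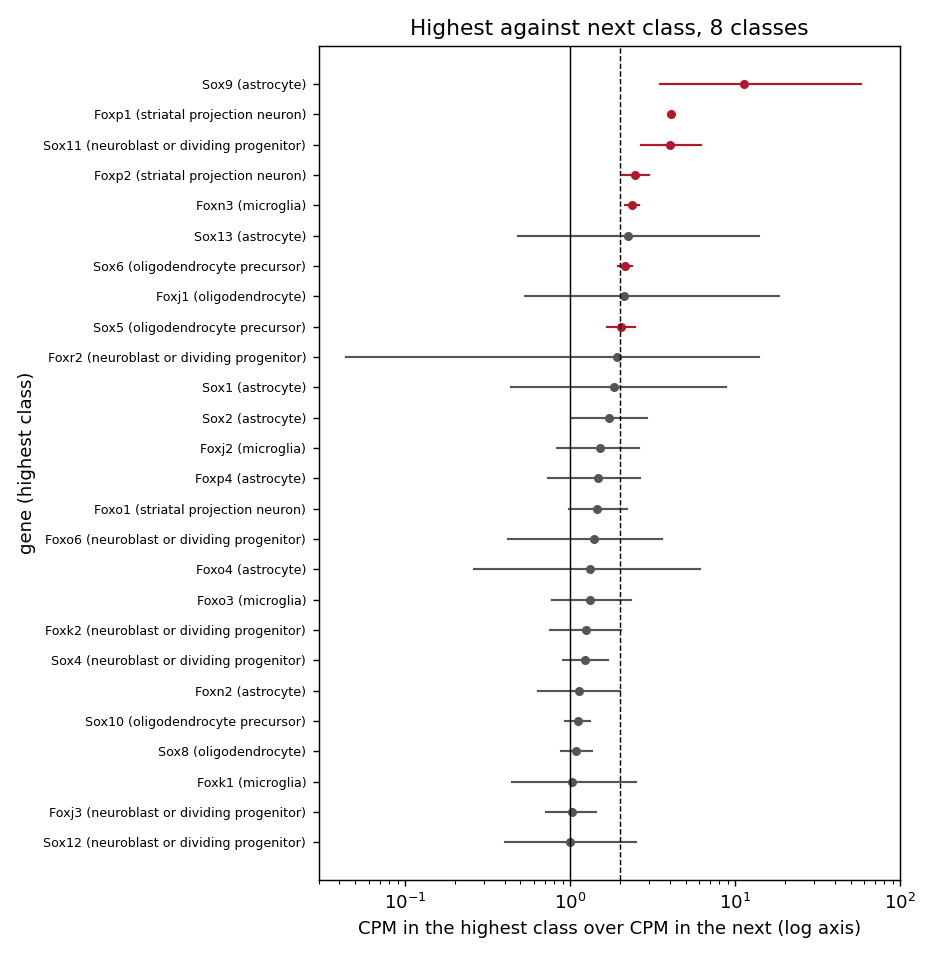
Ratio of the CPM in the highest class to that in the next, of 8 classes, for 26 of the 27 measured genes on a log axis, with exact intervals as lines. The dashed line marks 2-fold, and red marks the 7 genes with a clear highest class, from Sox5 at 2.03 to Sox9 at 11.3.

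Among the SoxE genes, Sox9, which is needed for astrocytes to be specified and stays on in them, was clearly highest in astrocytes. It stood at 80.3 CPM there (54.2 to 114.6, 30 UMIs), with 159 CPM in library 1 from 9 UMIs and 66.3 CPM in library 2. The next class was oligodendrocyte precursors at 7.13 CPM, giving a ratio of 11.3 (3.50 to 57.7). The other 7 classes ran from 2.53 CPM in striatal projection neurons to 7.13 CPM, with neighbours in that order not separable by their intervals. A Sox9 UMI was seen in 27 of 304 astrocytes (8.88%, exact binomial interval 5.94 to 12.7), against 121 of 8070 excitatory neurons (1.499%, 1.25 to 1.79). The median depth was 1189 UMIs in those astrocytes and 4397.5 UMIs in the excitatory neurons. Astrocytes were the only one of the 8 classes in which Sox9 passed the free RNA limit.

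Sox10, which switches on myelin genes together with Myrf, marked the whole oligodendrocyte line and little else. In library 1 it reached 800 CPM in differentiating oligodendrocytes, 496 CPM in precursors and 354 CPM in mature oligodendrocytes. The values in library 2 were 486, 300 and 305 CPM in the same order, so that the differentiating class was the highest of the line in both. Pooled, differentiating oligodendrocytes at 587 CPM were 1.59-fold above precursors at 368 CPM (1.23 to 2.06). Mature oligodendrocytes at 330 CPM were 0.563 times the differentiating class (0.460 to 0.695), and did not differ from precursors beyond counting error (precursors over mature 1.11, 0.934 to 1.32). Mature oligodendrocytes were 24.7-fold above astrocytes at 13.4 CPM (10.5 to 76.2), the next class below the line. None of the other 6 classes passed the free RNA limit. A Sox10 UMI was found in 60 of 103 differentiating oligodendrocytes (58.3%, 48.1 to 67.9), 117 of 355 precursors (33.0%, 28.1 to 38.1) and 773 of 3044 mature oligodendrocytes (25.4%, 23.9 to 27.0), against 118 of 8070 excitatory neurons (1.46%, 1.21 to 1.75). Median depths were 1617, 1129, 810 and 4397.5 UMIs in those 4 classes. Sox10 had no clear highest class, as precursors and mature oligodendrocytes lay within 2-fold of each other.

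Sox8, a SoxE protein that overlaps with Sox10 in oligodendrocytes, was spread more widely. It stood at 375 CPM in differentiating oligodendrocytes, 262 CPM in mature ones and 240 CPM in precursors. The differentiating class was 1.56-fold above precursors (1.13 to 2.15), and mature oligodendrocytes were 0.699 times the differentiating class (0.544 to 0.912). Unlike Sox10, Sox8 also passed the free RNA limit outside the line. Astrocytes had 120 CPM, about 0.502 times the precursors (0.345 to 0.720). Striatal projection neurons had 65.9 CPM and were 2.72-fold above excitatory neurons at 24.2 CPM (2.36 to 3.13), while inhibitory neurons had 7.91 CPM. The level in mature oligodendrocytes differed between libraries, with 315 CPM found in library 1 against 204 CPM in library 2. The clusters of mature oligodendrocytes also split by library, and the part of either in the other was not tested.

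**Figure D3:**
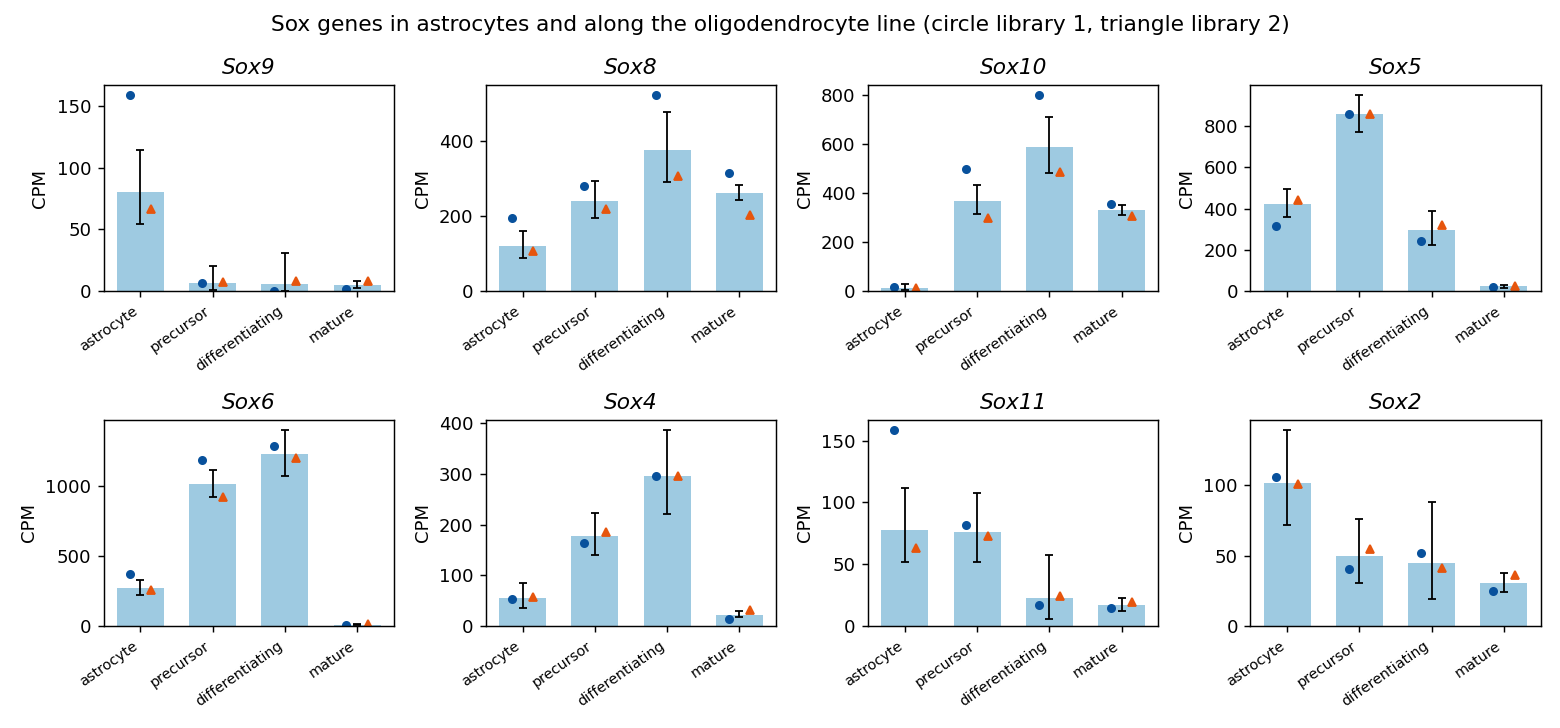
CPM of 8 Sox genes in astrocytes, oligodendrocyte precursors, differentiating oligodendrocytes and mature oligodendrocytes, with bars for both libraries pooled, exact Poisson intervals as lines, circles for library 1 and triangles for library 2. Sox10 and Sox8 stayed high in the mature class, while Sox5, Sox6 and Sox4 were near the bottom of their axes there.

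The SoxD genes Sox5 and Sox6 lack a transactivation domain and are known to hold oligodendrocyte precursors back from differentiating. Both were clearly highest in precursors among the 8 classes. Sox6 had 1017 CPM in precursors (1189 in library 1 and 925 in library 2), 2.15-fold above inhibitory neurons at 474 CPM (1.94 to 2.37). Sox5 had 858 CPM in precursors (856 and 859), 2.03-fold above astrocytes at 423 CPM (1.68 to 2.46). The Sox5 ratio sat at the 2-fold line, with 1.98 in library 1 alone and 1.95 in library 2 alone, both below it. Among nuclei with at least 1000 genes precursors were still highest for both genes but not clearly so, with ratios of 1.94 for Sox6 and 1.47 for Sox5. At a finer clustering the Sox5 ratio was 1.91. With the smaller classes counted, Sox6 was highest in differentiating oligodendrocytes, at 1230 CPM and 1.21-fold above precursors (1.02 to 1.43).

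Along the oligodendrocyte line the SoxD pair parted at the differentiating stage and met again in mature cells. From precursors to differentiating oligodendrocytes, Sox5 was 0.345 times as high (296 against 858 CPM, interval 0.254 to 0.462), while the Sox6 ratio was the 1.21 given above. In mature oligodendrocytes both were low, with Sox6 at 10.4 CPM, 0.0084 times the differentiating class (0.0055 to 0.0125), and Sox5 at 24.0 CPM, 0.0809 times it (0.0556 to 0.118). A Sox6 UMI occurred in 78 of 103 differentiating oligodendrocytes (75.7%, 66.3 to 83.6) and 235 of 355 precursors (66.2%, 61.0 to 71.1), against 29 of 3044 mature oligodendrocytes (0.953%, 0.639 to 1.37), whose level lay within the free RNA limit. Astrocytes had intermediate levels of both genes, 273 CPM of Sox6 and 423 CPM of Sox5. Sox13, the third SoxD gene, had 52 UMIs in all, just inside the minimum, and passed the free RNA limit in astrocytes only, at 16.1 CPM from 6 UMIs. An antisense gene, Sox5os1, has an exon that overlaps one of Sox5, and the counting strand is not given in the sources used here.

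In neurons the SoxD genes took different places. Sox6, which is needed for interneurons of the medial ganglionic eminence to mature, was at 474 CPM in inhibitory neurons and 6.51 CPM in excitatory neurons, a ratio of 72.7 (63.9 to 83.1). Within inhibitory neurons it followed the classes that arise from that eminence. Somatostatin neurons had 746 CPM (751 in library 1, 741 in library 2) and parvalbumin neurons 581 CPM (588 and 573). VIP neurons had 65.7 CPM and LAMP5 neurons 20.2 CPM, so that parvalbumin neurons stood 8.84-fold above VIP neurons (7.05 to 11.2) and somatostatin neurons 36.9-fold above LAMP5 neurons (23.0 to 63.5). The excitatory and striatal subclasses ran from 5.48 to 31.5 CPM.

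Sox5, known for the identity of neurons that project below the cortex, was broad over excitatory neurons and uneven over inhibitory ones. It was highest in claustrum neurons, at 847 CPM (911 in library 1, 809 in library 2), 1.40-fold above parvalbumin neurons (1.29 to 1.53). Parvalbumin neurons at 604 CPM, layer 5/6 near-projecting neurons at 597 CPM, layer 5 extratelencephalic neurons at 581 CPM and layer 6 corticothalamic neurons at 551 CPM followed, with no neighbours separable by their intervals. Layer 2/3 neurons had 343 CPM, the lowest of the excitatory subclasses. Parvalbumin neurons stood 8.24-fold above somatostatin neurons at 73.3 CPM (7.11 to 9.61), although both were high in Sox6. Direct-pathway neurons at 38.2 CPM and indirect-pathway neurons at 19.6 CPM were the lowest of all 13 subclasses.

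Among the SoxC genes, Sox11, an early marker of newborn neurons, was clearly highest in neuroblasts or dividing progenitors. It had 312 CPM there (348 in library 1, 305 in library 2), 4.03-fold above astrocytes at 77.6 CPM (2.69 to 6.23) and 6.96-fold above inhibitory neurons at 44.9 CPM (5.69 to 8.47). Sox4, its close relative, had 221 CPM in the same class (283 and 208), 6.54-fold above inhibitory neurons at 33.8 CPM (5.15 to 8.25). Among the 8 classes, Sox4 in neuroblasts or dividing progenitors was not separable from that in precursors at 178 CPM (ratio 1.24, 0.909 to 1.69). The leading genes of the class included Top2a, of dividing cells, and Dlx1 and Dlx6os1, of inhibitory lineages, and its next best marker score was that of inhibitory neurons. Among nuclei with at least 1000 genes Sox11 had 164 CPM in it and the ratio to the next class was 1.54 with a lower bound of 0.859. At a finer clustering, 170 of the 221 nuclei of the class were named inhibitory neurons, and the 51 nuclei named neuroblasts or dividing progenitors were too few to count. Sox11 had 659 CPM in those 51 nuclei and 248 CPM in the 170, and precursors were its highest class among those counted, with a ratio of 1.08. In library 1 alone the interval of its ratio of 2.19 reached down to 0.9996.

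Outside neuroblasts the SoxC pair differed in glia. Sox4 was 1.66-fold higher in differentiating oligodendrocytes (296 CPM) than in precursors (1.15 to 2.40). With the smaller classes counted, its level there was also above that in neuroblasts or dividing progenitors, with no interval given for that pair. It was 22.6 CPM in mature cells, 0.0761 times the differentiating class (0.0520 to 0.112). Sox11 went the other way at the first step, with 22.4 CPM in differentiating oligodendrocytes against 76.1 CPM in precursors (ratio 0.294, 0.0756 to 0.829), from 4 UMIs in the differentiating class. In mature neurons Sox11 remained detectable: claustrum neurons had 129 CPM and layer 2/3 neurons 92.4 CPM, the second being 5.82-fold above layer 5 extratelencephalic neurons at 15.9 CPM (4.43 to 7.78). Sox12, the third SoxC gene, had no single highest class. It had 26.2 CPM in neuroblasts or dividing progenitors, 26.1 CPM in precursors and 25.8 CPM in excitatory neurons. Microglia were lowest at 6.47 CPM from 4 UMIs, and excitatory neurons were 3.99-fold above them (1.55 to 14.7).

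The measured SoxB1 genes were Sox1 and Sox2, and neither had a clear highest class. Sox2, a progenitor factor that astrocytes keep, had 102 CPM in astrocytes (106 in library 1, 101 in library 2), 1.72-fold above neuroblasts or dividing progenitors (1.03 to 2.94). Precursors at 49.9 CPM and mature oligodendrocytes at 30.4 CPM were also above the free RNA limit. Inhibitory neurons had 18.7 CPM, 7.63-fold above excitatory neurons at 2.45 CPM (5.85 to 9.99), and LAMP5 neurons at 32.1 CPM exceeded parvalbumin neurons at 9.36 CPM 3.43-fold (1.94 to 6.08). Sox1 was at most 16.1 CPM, in astrocytes, from 6 UMIs.

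Among the Foxp genes, Foxp1 and Foxp2 were both clearly highest in striatal projection neurons, the spiny neurons whose development and projections need them. Foxp1 had 880 CPM there (855 in library 1, 890 in library 2), 4.10-fold above excitatory neurons at 215 CPM (3.94 to 4.27). Foxp2, whose loss in humans impairs speech, had 638 CPM (676 and 624), 2.48-fold above neuroblasts or dividing progenitors at 258 CPM (2.06 to 3.003). A Foxp1 UMI was seen in 1095 of 1414 striatal projection neurons (77.4%, 75.2 to 79.6), against 297 of 3044 oligodendrocytes (9.76%, 8.73 to 10.9), where its level was within the free RNA limit; median depths were 2710 and 810 UMIs. Clustering with the Sox and Fox genes among the variable genes placed Foxp2 highest in neuroblasts or dividing progenitors, 1.78-fold above the next class; the class so named then held 285 nuclei, which included 147 of the 221. An exon of Foxp1 overlaps the listed gene Gm20696 on the same strand. In all, 6 of the 27 measured members have an exon that overlaps another listed gene, 2 of them on the same strand. Foxo1, Sox4 and Foxj2, like Sox5, overlap a gene on the other strand.

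The pair differed between the striatal output classes. Indirect-pathway neurons, which carry the dopamine receptor Drd2, had 1127 CPM of Foxp1 (1224 in library 1, 1096 in library 2). Direct-pathway neurons, which carry Drd1, had 769 CPM (712 and 792), giving a ratio of 1.47 of indirect to direct (1.37 to 1.57). Foxp2 ran the other way. It had 253 CPM in indirect-pathway neurons (227 and 261) and 812 CPM in direct-pathway neurons (850 and 797), a ratio of 0.311 (0.276 to 0.351). The direction of each difference was the same in both libraries. Against the main direct-pathway cluster alone, the ratio of indirect-pathway neurons was 1.28 for Foxp1 (1.19 to 1.37) and 0.423 for Foxp2 (0.371 to 0.480). In the cortex, Foxp2 was high in layer 6 corticothalamic neurons, at 667 CPM (663 and 671), which was 5.87-fold above layer 6b neurons (5.01 to 6.91) and 52.0-fold above layer 2/3 neurons at 12.8 CPM (42.6 to 64.0). Layer 5/6 near-projecting neurons had 194 CPM, and the inhibitory subclasses between 13.5 and 40.8 CPM. Foxp1 was more even over excitatory subclasses, from 63.2 CPM in layer 4/5 intratelencephalic to 319 CPM in near-projecting neurons.

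Fibroblasts, too few to count among the 8 classes, had more of both genes than striatal projection neurons. Foxp2 was at 1507 CPM in 67 fibroblast nuclei (1125 in library 1, 1703 in library 2), 2.36-fold above striatal projection neurons (1.99 to 2.78). Foxp1 was at 1321 CPM (1096 and 1436), 1.5-fold above them (1.25 to 1.78). With fibroblasts counted, they and not striatal projection neurons were the highest class for both genes. A Foxp2 UMI occurred in 55 of 67 fibroblasts (82.1%, 70.8 to 90.4), against 47 of 3044 oligodendrocytes (1.54%, 1.14 to 2.05), where its level did not pass the free RNA limit, with median depths of 1139 and 810 UMIs. Foxp4, the remaining measured Foxp gene, was between 8.09 and 29.4 CPM in the 8 classes.

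**Figure D4:**
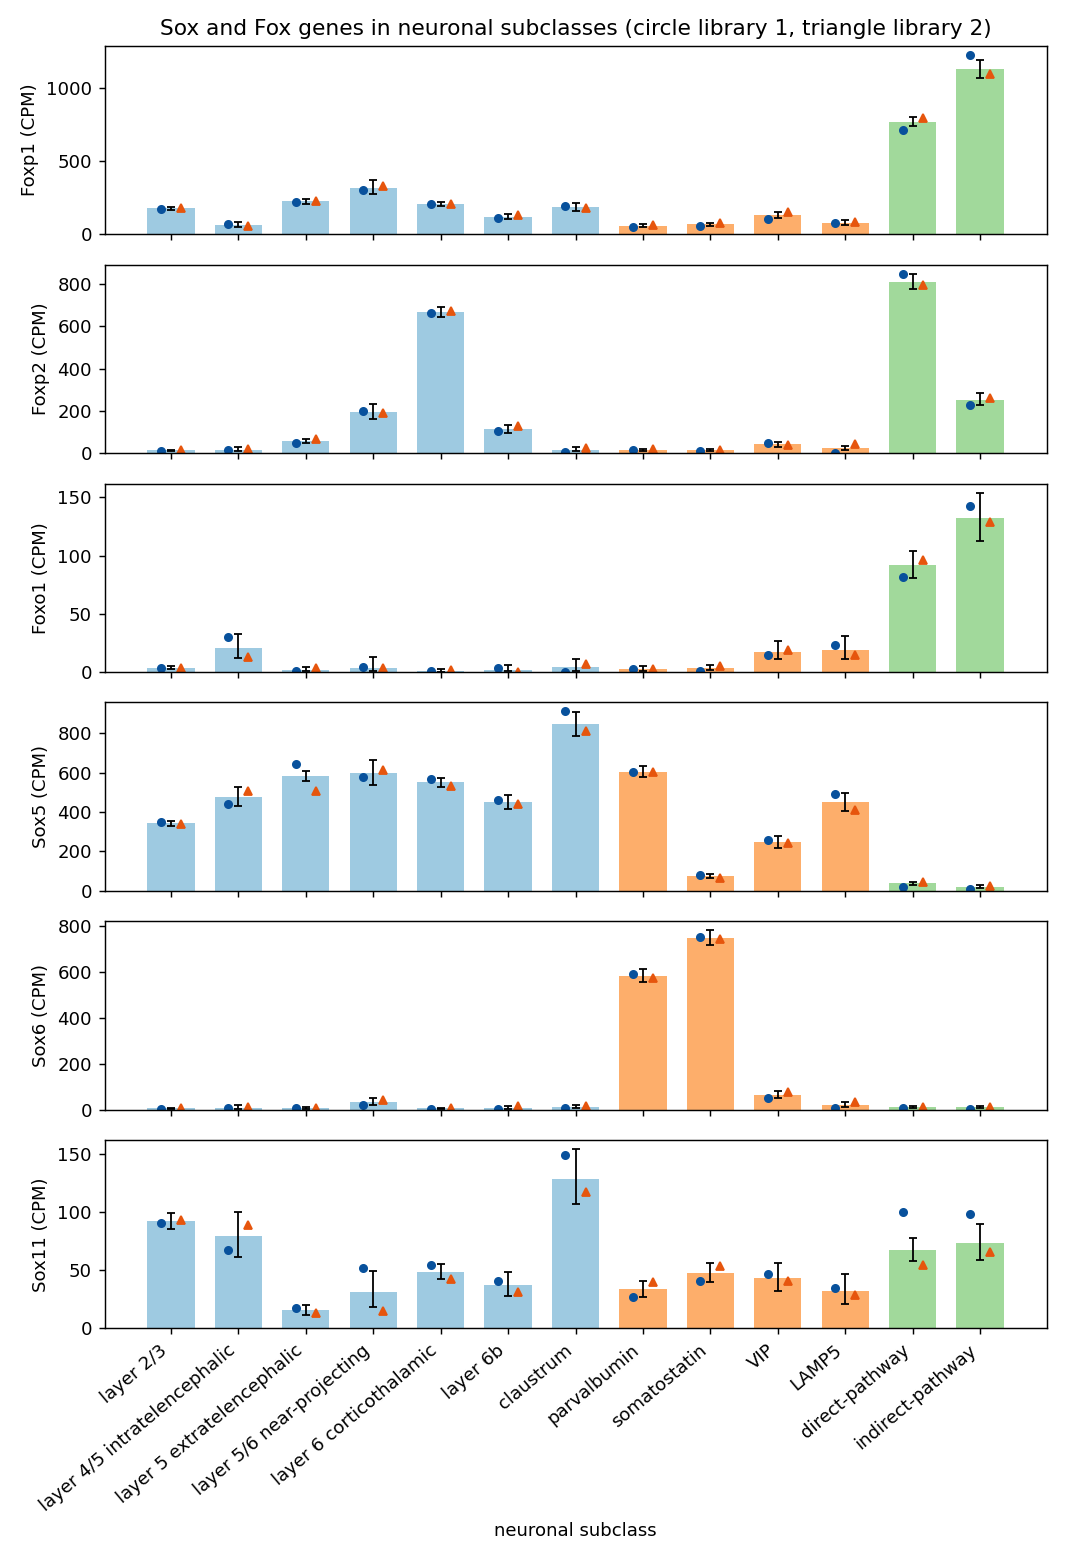
CPM of 6 genes in 13 neuronal subclasses (blue excitatory, orange inhibitory, green striatal), with bars for both libraries pooled, exact Poisson intervals as lines, circles for library 1 and triangles for library 2. Foxp2 stood out in direct-pathway and layer 6 corticothalamic neurons (812 and 667 CPM) and Sox6 in somatostatin and parvalbumin neurons (746 and 581 CPM).

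Over the 13 named neuronal subclasses, 0 of the 24 members with at least 50 UMIs in them had a clear highest subclass, against 4.12% of 14400 genes. Neuronal clusters without a subclass were left out of this count. No test was run over replicates, since the subclasses come from 1 pooled sample. Sox6, Foxp1 and Foxo1 each had their highest levels in a pair of related subclasses, while Foxp2 was highest in direct-pathway and corticothalamic neurons. Whether such pairs account for the count of 0 was not tested.

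Foxo1, which acts on metabolic and stress genes when insulin signalling is low, was highest in striatal projection neurons. It had 104 CPM there (98.6 in library 1, 107 in library 2), 13-fold above inhibitory neurons at 8.03 CPM (9.97 to 17.2). Astrocytes followed at 72.3 CPM, 9.11-fold above excitatory neurons at 7.93 CPM (5.90 to 13.5), and were not separable from striatal projection neurons (ratio 1.44, 0.979 to 2.22). These were the 2 classes in which Foxo1 passed the free RNA limit. Indirect-pathway neurons at 132 CPM were 1.44-fold above direct-pathway neurons at 91.9 CPM (1.17 to 1.76). They were not separable from the main direct-pathway cluster, 594 nuclei at 122 CPM (ratio 1.08, 0.877 to 1.33), while the other direct-pathway clusters, of 188 and 193 nuclei led by Gpr149, had 26.1 and 30.9 CPM. Neither Foxo1 nor any other measured Foxo gene had a clear highest class. Foxo3 ran from 26.9 CPM in inhibitory neurons to 74.4 CPM in microglia, where it was 2.75-fold above excitatory neurons (2.00 to 3.70). Within the 8 classes Foxo4 was at most 10.7 CPM and Foxo6 at most 10.9 CPM. Of the smaller classes, cholinergic neurons had 17.7 CPM of Foxo6 from 6 UMIs, and differentiating oligodendrocytes 11.2 CPM of Foxo4 from 2 UMIs.

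Foxn3, a repressor linked to cell-cycle checkpoints, was clearly highest in microglia. It had 1056 CPM there (1261 in library 1, 887 in library 2), 2.37-fold above oligodendrocytes at 445 CPM (2.15 to 2.61). Glia as a whole were above neurons, with 297 CPM in oligodendrocyte precursors and 292 CPM in astrocytes, and 198 CPM in inhibitory, 128 CPM in excitatory and 75.8 CPM in striatal projection neurons. Microglia were 13.9-fold above striatal projection neurons (12.1 to 16.0). A Foxn3 UMI was seen in 441 of 858 microglia (51.4%, 48.0 to 54.8) at a median depth of 690 UMIs, against 250 of 1414 striatal projection neurons (17.7%, 15.7 to 19.8) at 2710 UMIs, the class in which Foxn3 did not pass the free RNA limit. Within neurons, near-projecting neurons had 319 CPM, 5.08-fold above layer 2/3 neurons at 62.7 CPM (4.26 to 6.03). Among nuclei with at least 1000 genes the ratio of microglia to the next class was 1.53, with a lower bound of 0.690. Foxn2 was highest in astrocytes, at 72.3 CPM, 5.10-fold above inhibitory neurons at 14.2 CPM (3.22 to 7.81), and not separable from precursors at 64.2 CPM.

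The remaining Fox genes had no clear highest class. Foxj3 lay between 53.3 CPM in oligodendrocytes and 78.7 CPM in neuroblasts or dividing progenitors, a ratio of 1.47 between the extremes (0.995 to 2.13). Foxk1 and Foxk2, repressors that act on metabolic genes, ran from 12.0 to 27.5 CPM and from 28.5 to 74.3 CPM in the 8 classes, and Foxj2 from 2.38 to 29.1 CPM. Foxj1, the regulator of motile cilia, had 62 UMIs, of which 26 lay in oligodendrocytes at 9.31 CPM. Foxr2 had 52 UMIs, just inside the minimum, and at most 2.19 CPM in the 8 classes.

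**Figure D5:**
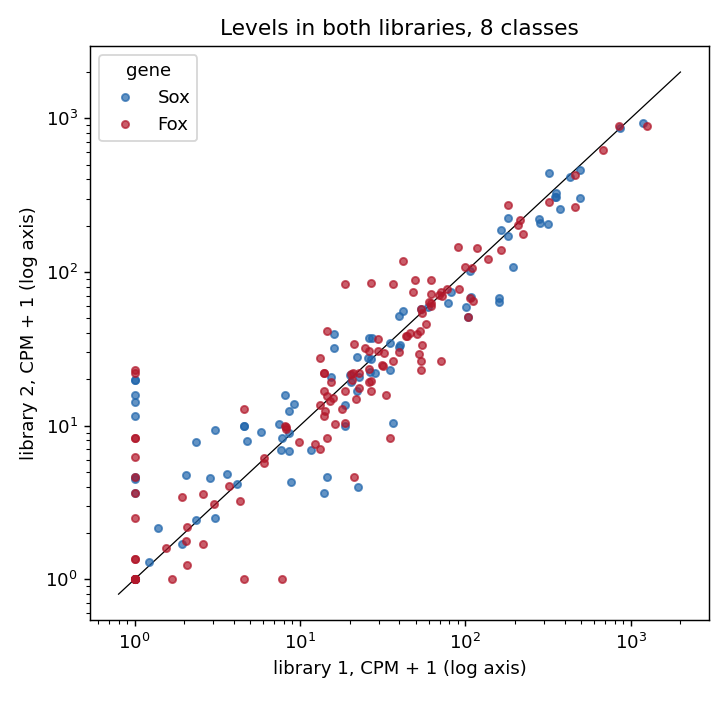
Level of each measured Sox and Fox gene in each of the 8 classes in library 1 (across) and library 2 (up), as CPM + 1 on log axes, with the line of equal levels. Of 123 gene and class pairs with at least 20 CPM in a library, 102 lay within 2-fold after adding 1 CPM. The matching share over all measured genes is not given.

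The library plot covers 216 gene and class pairs, with library 1 across and library 2 up. Points near the left edge are genes with no UMI in a class of library 1, which held the fewer astrocytes and neuroblasts or dividing progenitors.

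The 36 unmeasured members had 0 UMIs in 15 cases and 1 to 49 in 21. Those with 0 were Foxa1, Foxa2, Foxb2, Foxc2, Foxd3, Foxd4, Foxe1, Foxe3, Foxf1, Foxh1, Foxi2, Foxi3, Foxl1, Foxn4 and Sox14. Those with some were Foxa3, Foxb1, Foxc1, Foxd1, Foxd2, Foxf2, Foxi1, Foxl2, Foxm1, Foxn1, Foxp3, Foxq1, Foxr1, Foxs1, Sox3, Sox7, Sox15, Sox17, Sox18, Sox21 and Sox30. Foxc1, with 49 UMIs, was just outside the minimum. With under 50 UMIs each, they were not ranked over the classes.

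Genes known to act with these factors were counted by the same rule, in lists compiled with earlier results of these data known. Only Sox and Fox genes were kept out of the clustering, so listed genes could have helped to define the classes in which they were counted. Their counts are therefore not like those of the members. The POU list and the Foxo target list each held 1 marker gene. Of 16 factors that act with Sox proteins in glia, 9 had a clear highest class, with a median ratio of 2.13, against 15.1% of all 16007 measured genes and a median ratio of 1.28. The largest ratios were those of Myrf, the myelin regulator, 7.60-fold above the next class in oligodendrocytes, Nkx6-2, 7.46-fold in oligodendrocytes, and Olig2, 4.76-fold in oligodendrocyte precursors. None of the 7 POU factors that partner Sox proteins had one. The ratio was 1.81 for Pou3f1 and 1.55 for Pou3f2. Of 12 corepressors and partners of Foxp factors, 2 did, near the 15.1% of all measured genes: Satb1 in inhibitory neurons (2.68) and Gatad2a in microglia (2.02), with Nfatc2 next at 2.00. Neither lay in striatal projection neurons. Of 15 genes that control Foxo factors, 2 did, Akt2 in astrocytes (3.46) and Akt1 in microglia (2.05), a share also near that of all measured genes. Of 14 measured Foxo target genes, 4 did, with Txnip in microglia (4.03), Klf15 in astrocytes (3.34) and Bcl2l11 in microglia (2.59) the largest. None of 9 Wnt and Notch genes did; Lef1 reached 4.90 in astrocytes with a lower bound of 0.978, Tcf7l1 2.25 and Dll1 1.68.

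The genes most like the leading member of each class were ranked by Pearson's r of log2(CPM + 10) over the 8 classes, as a description, since the classes share libraries and differ in depth. For Sox9 they were Slc27a1 (0.994), Fjx1 (0.990) and Nwd1 (0.989). For Foxn3 they were Commd9 (0.978), Ypel3 (0.975) and 2510039O18Rik (0.974). For Sox6 they included Ntn4 (0.962) and Ntmt1 (0.936). For Foxp1 they were Car12 (0.948), Atp2b1 (0.948) and Mprip (0.946), and for Sox11 Nup37 (0.966), Rps15a (0.946) and Rbm12b2 (0.946). Those named for Sox11 were low, with highest class levels of 15.3 CPM for Nup37, 34.96 CPM for Rps15a and 17.48 CPM for Rbm12b2. Commd9, named for Foxn3, reached 40.44 CPM. Such levels are not far above the 10 CPM added before the log, and no interval is given for r.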

How the data were processed

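Single-nucleus RNA was sequenced with 10x 3′ chemistry, per the labels' protocols. The matrix the authors deposited holds UMI counts as whole numbers. Cell Ranger 1.3.0, Seurat 3.1.4 and mm10 are named in the submitters' processing notes, and the matrix was written by software version 3.1.0, per the file headers. Whether intronic reads were counted is not given in the sources used here.

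Of 20766 barcodes, 19551 had at least 500 genes. Scrublet, run per library in Scanpy 1.11.5, called 1456 doublets, which were removed. Counts were scaled to 10000 per nucleus, and 3000 variable genes without Sox and Fox genes gave 50 principal components, 20 neighbours and Leiden clusters at resolution 1. Classes and clusters left unnamed were clustered again at resolution 0.5. Clusters were named where at least 3 markers of a type were detected and its score was 1.5 times the next. The minimum subclass score of 0.4 and a rule that leaves clusters led by lymphocyte genes unnamed were added after the data were seen. CPM came from UMIs summed over nuclei, so the depth of a class sets its precision. Intervals of ratios are conditional on the sum of both counts. Nuclei are not replicates, so no test was made. The clear-class rule was also run on simulated data, but the outcome is not given here and nothing is drawn from it. Members were described by family, those at least 2-fold above the next class one by one; in lists, and as the genes most like a member, 3 genes were named. A few genes that these rules select, a measured member among them, are not reported here. Group pairs beyond neighbours in order were chosen after their values were seen. The members and lists were chosen with earlier results of these data known. Levels are compared between classes within a gene, not between genes.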

Additional observations from a re-analysis of the deposited data

How the results depend on the processing

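Of the 7 members with a clear highest class, all had the same highest class among nuclei with at least 1000 genes and in either library alone. Under other alternatives it changed for some, among them Sox11 at the finer clustering and Foxp2 with Sox and Fox genes among the variable genes. With classes of at least 50 nuclei it changed for Sox6, Foxp1 and Foxp2. Of the levels of the 7, 4 lay outside their pooled interval in library 1 alone, 1 in library 2 alone and 3 as a mean over nuclei. The count of clear members was 4 among nuclei with at least 1000 genes (Foxp1, Foxp2, Sox9 and, newly, Sox13), 3 at a 3-fold minimum (Sox9, Foxp1 and Sox11) and 4 with named classes of at least 50 nuclei, the last chosen after seeing the data. It lay between 5 and 10 under the other 8 alternatives. The highest class was kept by 15 of 27 members among nuclei with at least 1000 genes and by 12 of 27 with classes of at least 50 nuclei. The highest subclass was kept by 15 of 24 in library 1 alone. The cause was not tested. No shares over all measured genes are given for these alternatives, so the counts do not compare the members with other genes. With a minimum of 100 UMIs 24 members were measured, and 28 with doublets kept. Sox11 in neuroblasts or dividing progenitors stood at 164 CPM among nuclei with at least 1000 genes and 558 CPM as a mean over nuclei, and Sox9 in astrocytes stood at 159 CPM in library 1 alone, from 9 UMIs. Foxp1 was clearly highest in striatal projection neurons under every alternative except classes of at least 50 nuclei, where fibroblasts led. No paired analysis was possible because each group has 1 library, the labels give no replicate numbers and no library could be tied to a group.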

Other observations

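Some clusters finer than the named subclasses stood apart, and all of these were chosen after their values were seen. Among direct-pathway neurons, a cluster of 188 nuclei led by Gpr149, Gprin3 and Sema5b had 1891 CPM of Foxp2, 3.16-fold above the main direct-pathway cluster at 598 CPM (2.89 to 3.46). The same cluster had 0.557 times the Foxp1 (492 against 883 CPM, 0.482 to 0.640) and 0.213 times the Foxo1 (26.1 against 122 CPM, 0.109 to 0.380). A second small direct-pathway cluster of 193 nuclei, led by Gpr149, Isl1 and Fstl1, was also low in Foxo1 (0.252 times, 0.132 to 0.440) but had 568 CPM of Foxp2. An inhibitory cluster of 177 nuclei led by Chst9, Pbx3 and Meis2 had 1542 CPM of Foxp2, the highest inhibitory value. Among somatostatin neurons, a cluster of 149 nuclei led by Nos1, Sst and Npy had 1406 CPM of Sox6, 1.93-fold above the cluster led by Grin3a, Cdh7 and Reln (1.74 to 2.15) and 2.93-fold above the one led by Trhde, Cort and Sst (2.62 to 3.28), with 62.3 CPM of Sox2 against 24.1 CPM in the Grin3a cluster (ratio 2.59, 1.47 to 4.61).

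A cluster of 379 excitatory nuclei led by Abi3bp, Ndst4 and Fam19a2 had 27.0 CPM of Sox5 against 391 CPM in a related cluster led by Ndst4, Abi3bp and Bmpr1b (ratio 0.0691, 0.0479 to 0.0966), and 54.8 against 9.04 CPM of Foxo1 (ratio 6.06, 3.91 to 9.63). Of the unmeasured members, Foxd1 had 21 of its 32 UMIs in 18 of the 67 fibroblasts, and Foxc1 had 9 of 49 there. In the unnamed cluster of 58 nuclei with endothelial and pericyte markers, Foxq1 had 10 of 20 UMIs, Foxc1 8 of 49, Sox18 5 of 13, Sox17 4 of 9 and Foxf2 4 of 9. That cluster held 108283 of the 57598077 UMIs of all genes. Sox7 had only 2 of 15 UMIs there, against 4 in astrocytes and 7 in excitatory neurons. A further 3 of the 9 Sox17 UMIs lay in a cluster of 169 nuclei led by Hbb-bs, Hba-a2 and Hba-a1. Foxm1, a factor of dividing cells, had 5 of 13 UMIs in neuroblasts or dividing progenitors.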
